A study of Mus musculus with 28 samples.

Results

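The strain by WY14643 interaction is the WY14643 effect in hearts of del337TR mice minus the WY14643 effect in hearts of control mice. It was taken on log2 signal, gene by gene, and it used all 28 of the 28 arrays of a 2 by 2 design. The groups, with 7 arrays each, were del337TR mice given WY14643, untreated del337TR mice, control mice given WY14643, and untreated control mice. The series title places them in work on resistance to thyroid hormone and on activation of PPARalpha, and its design text calls del337TR a deletion strain and WY14643 a PPARalpha activator. Each array was hybridised with RNA of frozen heart, and the design counts individuals, 1 for each array. The receptor gene that carries the deletion, the dose, route and length of treatment, the age, sex and background of the mice, the part of the heart taken, and what the untreated mice received are not stated in the labels. Whether replicates shared a litter, day or scan is not stated either, so p-values measure the spread between these individuals only.

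WY14643 is a synthetic ligand of PPARalpha, a nuclear receptor that pairs with RXR and turns on genes of fatty acid uptake, mitochondrial and peroxisomal beta-oxidation and ketone production. Thyroid hormone receptors also pair with RXR and bind copies of the same AGGTCA half-site in a different spacing. With hormone they activate genes such as Thrsp, Klf9 and Myh6, and without it they hold many of the same genes down. A receptor that cannot bind hormone stays in the repressing form, which is a known basis of resistance to thyroid hormone. The interaction asks whether the heart's response to the PPARalpha activator differed between the strains. A value above 0 means that signal with WY14643 was higher, relative to untreated mice, in del337TR than in controls.

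The values were intensities in scaled units, 1 for each probe set and array. The cardiomyocyte genes were bright throughout. Myh6, the main myosin heavy chain of the adult mouse heart, had signals of 12560.2, 15543 and 20931.5 (lowest, median and highest) in treated del337TR hearts and 13135.3, 14093.2 and 16612.2 in untreated del337TR hearts. It had 14018.7, 16553.1 and 19894.5 in treated controls and 11949.2, 14389.4 and 17065 in untreated controls. The tissue label thus stands beside abundant heart muscle RNA in every group. Atrial content varied widely within groups: Myl4, the atrial light chain, ran between 165.7 and 14212.5 in treated and 707.2 and 13859.6 in untreated del337TR hearts, and between 134.4 and 8124.7 in treated and 106.9 and 9488.6 in untreated controls. By Xist and Eif2s3y, 1 of 7 treated del337TR hearts, 4 of 7 untreated del337TR hearts, 3 of 7 treated control hearts and 2 of 7 untreated control hearts were female, so the sex makeup moves with the interaction.

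No probe set passed the test for an interaction. Of 45037 probe sets tested with limma, 0 (0%) had an adjusted p under 0.05 (Benjamini-Hochberg), and the lowest adjusted p was 0.439. At an unadjusted p under 0.05 there were 2207 probe sets (4.9%), where an even spread of p-values gives 2252. Of these, 1466 (3.26%) lay above 0 and 741 (1.65%) lay below 0. That split depended on scaling. The share above 0 was 66.4% on the deposited scale, 49.7% after quantile normalization and 35.5% with each array centred on its median. The median interaction over all probe sets was 0.04 on the deposited scale, -0.00 after quantile normalization and -0.05 after centring.

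**Figure D1:**
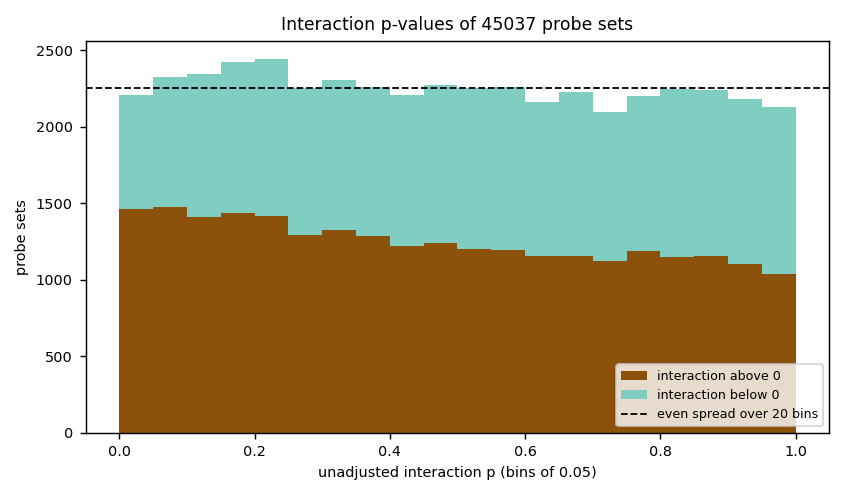
Histogram of the unadjusted interaction p-values of 45037 probe sets in bins of 0.05, split into interactions above 0 (brown, bottom) and below 0 (green, on top). The dashed line is the count that an even spread gives. The lowest bin holds 2207 probe sets, below the line at 2252.

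The precision of the interaction depended on brightness. The intervals given next are not adjusted for the number of probe sets, so a change as large as their reach need not pass the adjusted test. Among the 27022 probe sets with a mean signal above 40.2, the median standard error of the interaction was 0.23, and the median 95% interval reached 0.48 to either side, a ratio of folds of 1.39. Among the 18015 dimmer probe sets the standard error was 0.71 and the interval reached 1.47, a ratio of 2.76. The files carry no detection calls, so a dim probe set is described by its signal alone. Of the 2207 probe sets at an unadjusted p under 0.05, 2085 (94.5%) had WY14643 effects of opposite sign in the strains, against 47.2% of all probe sets. Because the interaction is the difference of those effects, probe sets taken for a large one hold more opposite signs by construction. Signal was higher with WY14643 in del337TR and lower in controls for 1396 of them, and the other way round for 689.

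St8sia2 had the lowest interaction p of all probe sets, on a probe set that was not its brightest. Among 18193 genes each read by the brightest probe set, the lowest unadjusted limma p was 0.000168. St8sia2 was not among the 87 genes with at least 2 probe sets at an unadjusted p under 0.05. Its brightest probe set was thus not at that level, and the values below are those of the dimmer one. It encodes a sialyltransferase that builds polysialic acid chains on the neural cell adhesion molecule. Its signals were 19.8, 26.2 and 66 (lowest, median and highest) in treated del337TR hearts and 32.6, 91.5 and 99.1 in untreated del337TR hearts. They were 32.2, 85.3 and 130.6 in treated control hearts and 20.4, 28.6 and 48.7 in untreated control hearts. The high groups were thus untreated del337TR and treated controls, and the ranges overlapped within both strains. The WY14643 effect was -1.19 ± 0.33 (log2, SE) in del337TR and 1.37 ± 0.33 in controls. The interaction was -2.56 ± 0.47, with a 95% interval between -3.52 and -1.60, an unadjusted limma p of 9.74e-06 and an adjusted p of 0.439. With 16 added to every signal before the log it was -1.90 ± 0.35 with an adjusted limma p of 0.175.

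Slfn3 was high in untreated controls and near the bottom of the scale in the other 3 groups. It belongs to the schlafen family, which is known in mice for its expression in lymphocytes and its link to growth arrest. Its signals were 0.8, 1 and 13.1 in treated del337TR hearts and 0.6, 7.7 and 22 in untreated del337TR hearts. They were 2.6, 6 and 10.3 in treated controls and 57.1, 83.5 and 178.6 in untreated controls. All 7 untreated controls lay above all 21 other arrays, and the other groups overlapped each other. A whole group above all the others was seen for 2 of 45037 probe sets among untreated controls (0.00444%), those of Slfn3 and Gskip, and for 1 among treated controls (0.00222%), that of Osbpl6. Gskip and Osbpl6 were picked out after their values had been seen.

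The WY14643 effect on Slfn3 was -0.94 ± 0.71 in del337TR and -4.10 ± 0.71 in controls. The interaction was 3.16 ± 1.00 (95% interval 1.11 to 5.21), with an adjusted limma p of 0.956. These fitted values rest on signals near the bottom of the scale, so they depend on how such signals are treated and are no bound on the change. With 16 added to every signal, which damps the noise of signals near 0, the interaction was 2.15 ± 0.29 with an adjusted limma p of 0.0019, and with 64 added it was 1.14 ± 0.15 with an adjusted limma p of 0.00204. With 16 added it was the 1 probe set of 45037 called (0.00222%), while 4.98% were at an unadjusted p under 0.05. Its call with 16 added held in each fit without 1 array and with sex as a covariate, but not in male arrays only, where the interaction was 2.34 ± 0.38 and the adjusted limma p 0.169. The other schlafen genes read here were Slfn1, Slfn2, Slfn4, Slfn5, Slfn8 and Slfn9, and none had an interaction at an unadjusted p under 0.05. Slfn1 had medians of 49.5 in treated and 66.2 in untreated del337TR hearts, against 55.2 in treated and 69.8 in untreated controls, and an interaction of 0.70 ± 0.42. Near-identical family members can share probes, so the signal of 1 schlafen gene may include that of another.

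The promoter of Slfn3 is shown because this gene was called once 16 was added. The sequence is the 250 bases before the RefSeq start in GRCm38.p6. Neither strand held the AGGTCA half-site.
Slfn3 chr11:83191080-83191329 (+ strand): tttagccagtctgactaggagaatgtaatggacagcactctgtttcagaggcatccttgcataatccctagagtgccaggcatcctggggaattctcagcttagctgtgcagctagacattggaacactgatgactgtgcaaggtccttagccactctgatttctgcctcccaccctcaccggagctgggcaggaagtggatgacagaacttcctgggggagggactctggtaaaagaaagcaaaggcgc

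**Figure D2:**
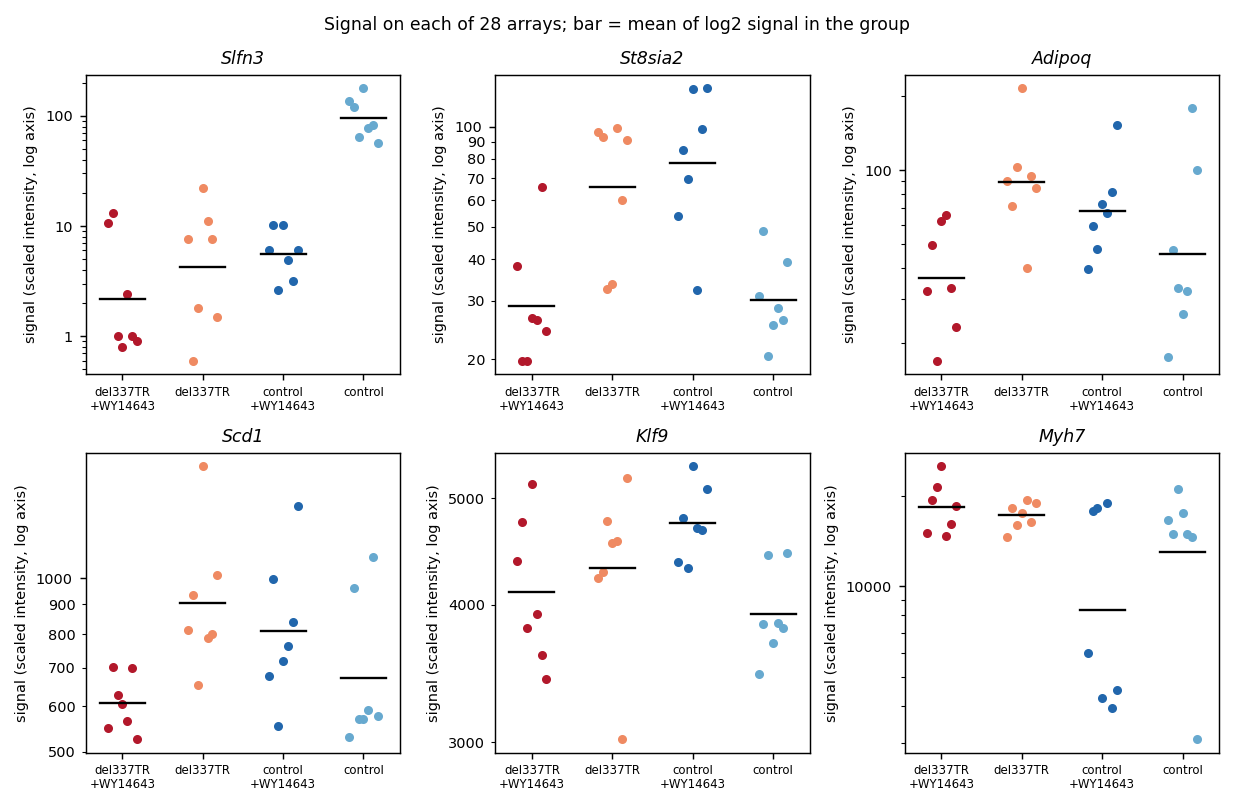
Signal of 6 genes on each of the 28 arrays, by group, on log axes in scaled intensity units. Points are arrays and the bar is the group mean of log2 signal. Slfn3 is high only in untreated controls, where the 7 arrays start at 57.1, St8sia2 is high in untreated del337TR and in treated controls, and Myh7 splits the treated controls.

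The 12 genes of lowest p above 0, among probe sets with 1 gene symbol and a mean signal above 40.2, had interactions between 0.40 and 1.17, each with an adjusted limma p of 0.956. In all 12 the fitted WY14643 effect was above 0 in del337TR and below 0 in controls. Kyat1, an aminotransferase of kynurenine breakdown, had medians of 102.3 in treated and 67.8 in untreated del337TR hearts, against 66.6 in treated and 82.9 in untreated controls. Its interaction was 0.97 ± 0.23. Map3k7, the kinase TAK1 of inflammatory and TGF-beta signalling, had medians of 211.4 and 157.2 in treated and untreated del337TR hearts, against 157.9 and 196.7 in treated and untreated controls, with an interaction of 0.90 ± 0.22. Of 6 probe sets of Map3k7, 5 lay above 0, and 3 were at an unadjusted p under 0.05, at 0.90, 0.50 ± 0.20 and, on the dimmest, -0.89 ± 0.26. For both genes treated del337TR and untreated controls had the higher medians. Signals of Kyat1 ran from 79.2 to 126.8 in treated del337TR hearts and from 49.1 to 71.2 in treated controls. Kyat1 was taken for its low p, and the share of all probe sets with these groups apart was not counted. For Map3k7 the 4 groups overlapped.

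The brightest of these 12 genes were Slk and Fbln2. Slk, a kinase of the cytoskeleton, had signals of 1027, 1145.3 and 1277.4 in treated del337TR hearts and 877.6, 904 and 1047.5 in untreated del337TR hearts. It had 868.7, 1078.5 and 1193.7 in treated controls and 1033.9, 1139.7 and 1164.6 in untreated controls. Its interaction was 0.40 ± 0.11 (95% interval 0.17 to 0.63). Untreated del337TR hearts were the low group, although they overlapped the others. Fbln2, an extracellular matrix glycoprotein, had medians of 914.1 and 670.9 in treated and untreated del337TR hearts, against 719.1 and 878.1 in treated and untreated controls, with an interaction of 0.58 ± 0.16.

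The rest of the 12 covered varied roles. Sgms2, a sphingomyelin synthase, had an interaction of 1.08 ± 0.29, and Ttc39b had 1.17 ± 0.31. Dhdds, which makes the lipid carrier for protein glycosylation, had 0.89 ± 0.25. Amigo1, a cell adhesion protein, had 0.63 ± 0.16, Prkx, a cAMP-dependent kinase, 0.75 ± 0.20, and Tmeff1, a membrane protein with follistatin-like domains, 0.68 ± 0.19. Rrm2 and Mybl2 are genes of DNA replication and of the cell cycle. Mybl2 had 0.74 ± 0.20 and Rrm2 had 0.89 ± 0.24 on the probe set that the rule chose. The other probe sets of Rrm2 gave 1.15 ± 0.38 and 0.21 ± 0.25, and they were looked at after the values had been seen.

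The 12 genes of lowest p below 0 had interactions between -2.56 and -0.35. Their fitted WY14643 effect was below 0 in del337TR and above 0 in controls for each of the 12. Apart from St8sia2, each had an adjusted limma p of 0.956. Cntn2, a neuronal adhesion protein that also marks the conduction system of the mouse heart, had signals of 9.2, 17.4 and 41.7 in treated del337TR hearts and 18.9, 55.4 and 99.8 in untreated del337TR hearts. It had 19, 95.6 and 109.6 in treated controls and 9.3, 58.6 and 108.4 in untreated controls, and an interaction of -2.41 ± 0.69. Treated del337TR hearts were the low group, and 1 treated control lay far below the other 6.

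Pik3ca, the catalytic subunit of phosphoinositide 3-kinase, and Nsfl1c, a cofactor of the p97 ATPase, were the brightest of these 12. Pik3ca had signals of 529, 584 and 634.2 in treated del337TR hearts and 521.1, 596.6 and 646.4 in untreated del337TR hearts. It had 547, 609.6 and 735.5 in treated controls and 478.1, 488.9 and 537.7 in untreated controls. Untreated controls had the lowest median, the del337TR groups covered much the same range, and the interaction was -0.35 ± 0.10. Nsfl1c had medians of 1990.6 and 2004 in treated and untreated del337TR hearts, against 2220.9 and 1693 in treated and untreated controls, with an interaction of -0.44 ± 0.13. Lhx4, a LIM homeobox factor, had an interaction of -1.56 ± 0.42, and Cog8, a Golgi tethering subunit, had -1.05 ± 0.28. Cdc25a, a phosphatase of cell cycle entry, had -0.59 ± 0.18, and Ing3, a subunit of a histone acetyltransferase complex, had -0.77 ± 0.21. The pseudogene Magea7-ps had -1.19 ± 0.33, C2cd2 had -0.91 ± 0.27, St7l had -0.55 ± 0.15 and Ankrd54 had -0.52 ± 0.16.

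**Figure D3:**
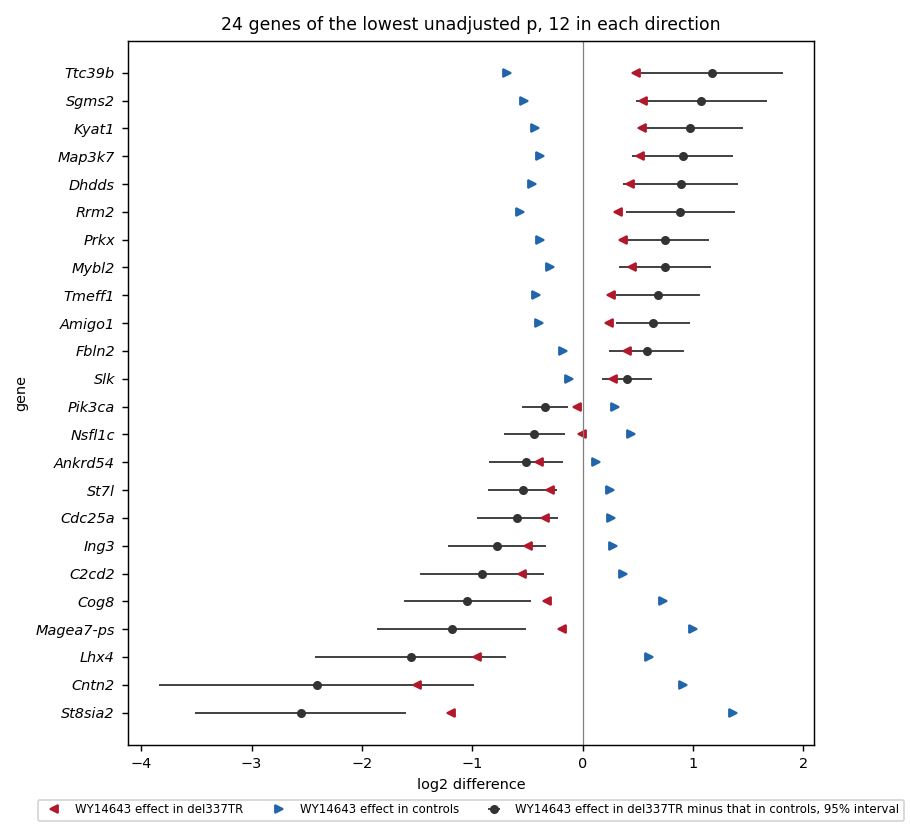
Interaction (black, with 95% interval) and the WY14643 effect in del337TR (red) and in controls (blue) for the 24 genes of lowest unadjusted p, 12 in each direction, on a log2 scale. The red and blue symbols lie on opposite sides of 0 in every row, and the intervals are widest for the dim genes Cntn2 and St8sia2.

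Where a gene was read by several probe sets, they were compared with each other. There were 87 genes with at least 2 probe sets at an unadjusted p under 0.05. In 60 of them these probe sets had the same sign, 49 above 0 and 11 below, and in 27 the signs were opposite. Sync, which encodes syncoilin, an intermediate filament protein of striated muscle, had 3 of 3 probe sets above 0, with interactions of 0.54 ± 0.20, 0.39 ± 0.17 and 0.48 ± 0.16. On the probe set of lowest p its signals were 190.4, 211.2 and 236 in treated del337TR hearts and 120.6, 205.3 and 231.3 in untreated del337TR hearts. They were 135.3, 165.3 and 181.7 in treated controls and 177.3, 210.6 and 242.4 in untreated controls. Treated controls had the lowest median of the 4 groups. Sync was picked out after its values had been seen.

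Of the receptors themselves, no probe set of Thrb, Thra or Ppara was at an unadjusted p under 0.05. Thrb, a thyroid hormone receptor gene, had medians of 151.2 in treated and 147.6 in untreated del337TR hearts, against 135.1 in treated and 145.1 in untreated controls, and an interaction of 0.15 ± 0.22. The 3 probe sets of Thra, the other thyroid hormone receptor gene, had interactions of 0.19 ± 0.23, -0.02 ± 0.32 and -0.03 ± 0.17. The 3 of Ppara, the target of WY14643, had -0.25 ± 0.21, -0.26 ± 0.25 and -0.11 ± 0.29. The fitted WY14643 effect on the Ppara probe sets lay below 0 in both strains. On the brightest it was -0.49 ± 0.18 in del337TR and -0.23 ± 0.18 in controls.

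The related receptors Ppard and Pparg had lower p. Of the 18 receptors and coregulators measured, 2 (11.1%) were at an unadjusted p under 0.05, both below 0, beside 4.64% of 18193 genes read by 1 probe set each (2.83% above 0 and 1.82% below 0). Ppard, the broadly expressed PPAR, had signals of 103.5, 156.5 and 169.7 in treated del337TR hearts and 145.7, 153 and 257.5 in untreated del337TR hearts. It had 178, 220.3 and 381.9 in treated controls and 138.8, 148.7 and 248.5 in untreated controls. Treated controls had the highest median of Ppard, and the interaction was -0.68 ± 0.25 with an unadjusted limma p of 0.0106 and an adjusted p of 0.956. Pparg, the PPAR of adipocytes, had 14.4, 33.6 and 74.6 in treated del337TR hearts and 34.9, 76.3 and 119.6 in untreated del337TR hearts. It had 46.4, 79.2 and 121 in treated controls and 43.4, 72.9 and 76.7 in untreated controls. Treated del337TR hearts were the low group, with overlap, and the interaction was -1.25 ± 0.45.

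No PPAR target gene of the list was at an unadjusted p under 0.05. Of 18 measured genes of lipid uptake and fuel switching, 7 lay above 0 and 11 below, with a median of -0.03, beside 9508 of 18193 genes above 0 and a median of 0.01. The median fitted WY14643 effect of the list was 0.03 in del337TR and 0.04 in controls, with 10 and 11 of 18 genes above 0. An interaction near 0 thus does not mean a shared rise of these genes with WY14643. Pdk4, the kinase that shuts down pyruvate dehydrogenase when fat is burned, had medians of 12045.8 and 12375.3 in treated and untreated del337TR hearts, against 12902.5 and 11731.4 in treated and untreated controls. Its interaction was -0.02 ± 0.12, with a 95% interval between -0.27 and 0.23. Angptl4, an inhibitor of lipoprotein lipase, had 0.11 ± 0.65, and Ucp3, a mitochondrial carrier of muscle, had -0.44 ± 0.40. Pdk4, Angptl4 and Ucp3 were chosen as known targets after the values had been seen. Their WY14643 effects in del337TR were 0.10 ± 0.09, -0.60 ± 0.46 and -0.04 ± 0.28. In controls they were 0.12 ± 0.09, -0.71 ± 0.46 and 0.40 ± 0.28. Fgf21, a fasting hormone, had an interaction of 1.02 ± 0.71, the fatty acid transporter Slc27a1 had 0.20 ± 0.17, and the lipid droplet protein Plin5 had -0.32 ± 0.23. The 14 measured genes of peroxisomal lipid metabolism had 6 above 0 and a median of -0.01. Pex11a, a factor of peroxisome division, had -0.21 ± 0.16.

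Mitochondrial genes lay together below 0, each by a small amount. Respiratory chain and ATP synthase subunits numbered 41, of which 39 had an interaction below 0 and 2 above 0, with a median of -0.12, and none was at an unadjusted p under 0.05. The median fitted WY14643 effect of these genes was 0.05 in del337TR and 0.16 in controls, with 33 of 41 above 0 in del337TR and 41 of 41 in controls. Cyc1, the cytochrome c1 subunit of complex III, had signals of 9323.1, 10013.7 and 11814.2 in treated del337TR hearts and 8888.2, 9658.3 and 12262.7 in untreated del337TR hearts. It had 10131.2, 10758 and 14730.8 in treated controls and 8065.4, 9899 and 10464.6 in untreated controls. The groups overlapped, and its interaction was -0.25 ± 0.14. The complex I subunits Ndufa1 and Ndufs7 had -0.24 ± 0.13 and -0.21 ± 0.12. These genes are bright and share the arrays, so they are not independent of each other, and their values depend on scaling. The list median was -0.06 with 7 of 41 above 0 after quantile normalization, and -0.22 with 0 of 41 above 0 after centring. It was -0.07 with sex as a covariate and -0.19 with the adipocyte score. The brightest 9008 probe sets had a median interaction of -0.02, against 0.12 for the dimmest 9008.

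Mitochondrial beta-oxidation had 4 of 18 genes above 0 and a median of -0.07, which was -0.00 after quantile normalization. Acadvl, which starts the breakdown of long-chain fatty acids, had an interaction of -0.21 ± 0.12. The citric acid cycle and pyruvate oxidation list had 7 of 21 above 0 and a median of -0.06, which turned to 0.01 after quantile normalization. Idh3a, a subunit of isocitrate dehydrogenase, had -0.18 ± 0.12, and Pdk1, another pyruvate dehydrogenase kinase, had 0.35 ± 0.19. Glucose uptake and glycolysis had 6 of 16 above 0 and a median of -0.05, which turned to 0.04 after quantile normalization. No gene of these lists was at an unadjusted p under 0.05.

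Fat-making genes lay below 0. Of 18 genes of lipogenesis and triglyceride synthesis, 16 had an interaction below 0, the median was -0.19, and 2 (11.1%) were at an unadjusted p under 0.05, both below 0, beside 4.64% of all genes (1.82% below 0). The median fitted WY14643 effect was -0.12 in del337TR and 0.10 in controls. Scd1, which desaturates fatty acids, had signals of 526.6, 605 and 702.3 in treated del337TR hearts and 653.8, 811.5 and 1560 in untreated del337TR hearts. It had 553.7, 764.1 and 1332.6 in treated controls and 530.3, 576.3 and 1087.3 in untreated controls. Treated del337TR hearts were low and narrowly spread, and 2 untreated controls stood high above the rest of their group. The interaction of Scd1 was -0.85 ± 0.28, with an unadjusted limma p of 0.00493 and an adjusted p of 0.956. Fasn, the fatty acid synthase, had an interaction of -0.45 ± 0.23. Its signals ran from 159.7 to 231.1 in treated and from 237.6 to 417.4 in untreated del337TR hearts. They ran from 166.2 to 331.2 in treated and from 173.8 to 304.4 in untreated controls. Lpin1, a phosphatidic acid phosphatase and nuclear coactivator, had -0.58 ± 0.27.

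Most adipocyte markers lay below 0 along with them. Of 7 measured markers 5 lay below 0 and 2 above 0, the highest at 0.68, and the median was -0.22. At an unadjusted p under 0.05 were 3 (42.9%), all below 0, beside 4.64% of all genes (1.82% below 0). Those 3, Adipoq, Retn and Cidec, are given next because their p was lowest, so they do not stand for the whole list. Adipoq, the hormone adiponectin, had signals of 16.9, 33.2 and 65.6 in treated del337TR hearts and 40.1, 90.7 and 215 in untreated del337TR hearts. It had 39.7, 67 and 152 in treated controls and 17.5, 33.3 and 179.4 in untreated controls. Treated del337TR hearts and most untreated controls were low. Its interaction was -1.87 ± 0.62 with an unadjusted limma p of 0.0053. Retn, the adipocyte hormone resistin, had -1.22 ± 0.46, and Cidec, a lipid droplet protein of fat cells, had -2.16 ± 0.95 at signals of 1.7 to 51.8. Lipe, hormone-sensitive lipase, chosen after its value had been seen, had -0.22 ± 0.20. The summed signal of the 7 markers, which Fabp4 dominates, had ranges of 8766.1 to 14412.4 and 8290.2 to 11770.4 in treated and untreated del337TR hearts, against 8536.8 to 11457.6 and 8513.3 to 11815 in treated and untreated controls. No adipocyte marker was at 0 throughout. In bulk tissue, fewer cells of a type and less RNA per cell cannot be told apart.

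A score of Adipoq and Retn (mean log2 signal) had an interaction of -1.55 ± 0.42. These are the 2 markers of lowest interaction p, so this value follows from theirs and is no further support. The mean log2 signal of all 7 markers was 6.22 and 6.92 in treated and untreated del337TR hearts. It was 6.59 and 6.68 in treated and untreated controls. With the score of Adipoq and Retn as a covariate the interaction of Scd1 was -0.24 ± 0.29. That of Fasn was 0.06 and that of Adipoq, which is part of the score, was 0.07. Pparg stayed at -1.28 ± 0.58 and Ppard at -0.99 ± 0.30. In male arrays only, Adipoq had -1.15 ± 0.85, Scd1 -0.53 ± 0.31, Fasn -0.23 ± 0.24, Retn -0.72 ± 0.68, Pparg -1.91 ± 0.58 and Ppard -0.63 ± 0.36, and none had an adjusted limma p under 0.05. With sex as a covariate Fasn had -0.25 ± 0.21, and without the 4 arrays numbered 7 Retn had -0.66 ± 0.39.

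The promoters of Adipoq, Pparg and Lpin1 are shown because these genes had the same sign, and because Pparg and Lpin1 were the 2 of 14 list genes in the promoter table at an unadjusted p under 0.05 that held an AGGTCA half-site. Each window is the 250 bases before a RefSeq start in GRCm38.p6, read on the gene's strand, and capitals mark AGGTCA. The matches in the windows of Pparg started 28 and 9 bases before the gene's starts, and that of Lpin1 74 bases before. One further RefSeq start of Pparg had no match and is not shown. On either strand AGGTCA was found in 14.0% of 32851 windows and for 15.8% of 27025 genes, and for 3 of the 22 genes in the table among the 24 of lowest p. These matches describe letters in a window and not sites of binding.
Adipoq chr16:23146286-23146535 (+ strand): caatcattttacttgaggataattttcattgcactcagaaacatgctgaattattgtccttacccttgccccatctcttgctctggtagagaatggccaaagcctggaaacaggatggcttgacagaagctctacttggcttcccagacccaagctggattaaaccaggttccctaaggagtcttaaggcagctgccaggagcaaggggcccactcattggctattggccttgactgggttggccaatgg
Pparg chr6:115360894-115361143 (+ strand): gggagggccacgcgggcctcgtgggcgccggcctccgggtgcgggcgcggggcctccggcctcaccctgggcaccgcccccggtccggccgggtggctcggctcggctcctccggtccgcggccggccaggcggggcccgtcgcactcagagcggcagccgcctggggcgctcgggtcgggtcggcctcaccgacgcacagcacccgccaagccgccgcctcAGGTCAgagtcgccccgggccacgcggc
Pparg chr6:115362099-115362348 (+ strand): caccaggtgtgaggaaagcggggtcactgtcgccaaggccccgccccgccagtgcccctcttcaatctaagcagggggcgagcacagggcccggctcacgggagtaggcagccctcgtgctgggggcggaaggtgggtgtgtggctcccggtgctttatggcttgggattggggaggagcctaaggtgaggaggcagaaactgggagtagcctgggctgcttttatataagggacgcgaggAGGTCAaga
Lpin1 chr12:16610967-16611216 (- strand): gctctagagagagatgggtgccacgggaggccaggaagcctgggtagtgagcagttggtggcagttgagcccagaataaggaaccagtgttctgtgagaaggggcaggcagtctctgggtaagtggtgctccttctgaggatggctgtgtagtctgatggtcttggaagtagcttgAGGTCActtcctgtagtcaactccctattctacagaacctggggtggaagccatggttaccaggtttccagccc

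Thyroid hormone induced genes lay mostly below 0. Of 13 measured genes 11 lay below 0, the median was -0.26, and 4 (30.8%) were at an unadjusted p under 0.05, 3 below 0 and 1 above, beside 4.64% of all genes (1.82% below 0 and 2.83% above 0). The median fitted WY14643 effect was -0.07 in del337TR and 0.20 in controls. Klf9, a zinc finger factor that is a direct thyroid hormone target, had signals of 3425, 3922.4 and 5154.3 in treated del337TR hearts and 3022.3, 4556.7 and 5212.5 in untreated del337TR hearts. It had 4320.1, 4696.3 and 5342.3 in treated controls and 3458.7, 3841.8 and 4457.3 in untreated controls. Treated controls were high, the groups overlapped, and the interaction was -0.35 ± 0.15. Gpd2, the mitochondrial glycerol phosphate dehydrogenase, had -0.56 ± 0.22, with 1 array far above the other 6 in each control group.

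Thrsp, the lipogenic factor Spot14, had medians of 703.2 and 742.2 in treated and untreated del337TR hearts, against 1261.4 and 829 in treated and untreated controls. Its interaction was -0.64 ± 0.31 on this probe set, the brightest of 3. The other probe sets of Thrsp gave -0.16 ± 0.30 and, on the dimmest, 1.88 ± 0.64, so its direction differed between probe sets. Hr, the corepressor hairless, had -0.82 ± 0.42. Both genes were picked out after their values had been seen. The gene above 0 was Dio1, a deiodinase, at 1.41 ± 0.56, but its signals lay between 1.6 and 19.6, near the bottom of the scale. Myh6 had -0.13 ± 0.15. Of 7 thyroid hormone repressed genes 5 lay above 0, with a median of 0.03, which turned to -0.07 after centring. The list of induced genes had a median of -0.30 after quantile normalization, -0.36 after centring and -0.14 with the adipocyte score as a covariate.

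Among heart muscle genes the treated controls were split. Myh7, the slow myosin heavy chain that thyroid hormone represses, had signals of 14676.6, 18499.2 and 24980.9 in treated del337TR hearts and 14571.8, 17464.7 and 19365.6 in untreated del337TR hearts. It had 3920.7, 6007 and 18817.1 in treated controls and 3102.7, 14892.9 and 20991.8 in untreated controls. In treated controls 4 arrays were low and 3 were at the level of the other groups, and a single untreated control was low. The interaction was 0.73 ± 0.54. Nppa, atrial natriuretic peptide, had 7564.1, 12056.6 and 18238.7 in treated del337TR hearts and 10185, 11551.2 and 18293.6 in untreated del337TR hearts. It had 2837.7, 4703.4 and 14345.3 in treated controls and 8190.7, 11837.6 and 13205.1 in untreated controls, with an interaction of 0.69 ± 0.43. Neither gene was at an unadjusted limma p under 0.05, with values of 0.188 and 0.116.

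Of 16 fetal and hypertrophy genes 10 lay above 0, the median was 0.23, and 1 (6.25%) was at an unadjusted p under 0.05, a share near the 4.64% of all genes. That gene was Ankrd2, a stretch-responsive ankyrin repeat protein of muscle, with medians of 88 and 25.9 in treated and untreated del337TR hearts, against 17.4 and 35.2 in treated and untreated controls, and an interaction of 1.90 ± 0.77. Acta1, skeletal actin, had 0.49 ± 0.27. Of 20 sarcomere genes 14 lay below 0, with a median of -0.06, which was -0.00 with 10 of 20 above 0 after quantile normalization and -0.01 with sex as a covariate. Of 17 calcium handling genes 11 lay below 0, with a median of -0.04 that turned to 0.02 after quantile normalization, and 1 (5.88%) was at an unadjusted p under 0.05, again near the 4.64% of all genes. That gene was Hrc, a calcium binding protein of the sarcoplasmic reticulum, with medians of 5936.9 and 5799.9 in treated and untreated del337TR hearts, against 6849.5 and 5829.2 in treated and untreated controls, and an interaction of -0.30 ± 0.14. The summed signal of 9 atrial markers ran between 10691.6 and 57582.5 in treated and between 14078.5 and 54555.6 in untreated del337TR hearts. It ran between 5075.9 and 34053.9 in treated and between 10940.4 and 38310.8 in untreated controls. The atrial markers' part in these values was not tested beyond the covariate, with which the median of the fetal list was 0.28. That median was 0.05 with the adipocyte score as a covariate and 0.13 after centring.

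Matrix, stress and interferon genes lay more often above 0. Of 23 extracellular matrix genes 20 lay above 0, with a median of 0.11, which was 0.01 with 13 of 23 above 0 after centring. The median fitted WY14643 effect was -0.01 in del337TR and -0.12 in controls. Col15a1, a basement membrane collagen, had 0.43 ± 0.22, and Col1a1, the main fibrillar collagen chain, had 0.57 ± 0.35. Of 23 immediate early and heat shock genes 19 lay above 0, with a median of 0.09, which was -0.00 after centring. Hsp90aa1, a heat-inducible chaperone, had 0.26 ± 0.16, and Dusp1, a phosphatase of MAP kinases, had -0.27 ± 0.18. Of 18 interferon-induced and schlafen genes 13 lay above 0, with a median of 0.18, and Slfn3 was the 1 (5.56%) at an unadjusted p under 0.05, beside 4.64% of all genes. Irf7, a transcription factor of the interferon response, had 0.32 ± 0.23. Of 17 circadian clock genes 9 lay above 0, with a median of 0.02. Ciart, a clock repressor, had 0.85 ± 0.55, the period gene Per2 had 0.40 ± 0.27, and the clock repressor Nr1d2 had -0.45 ± 0.24.

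**Figure D4:**
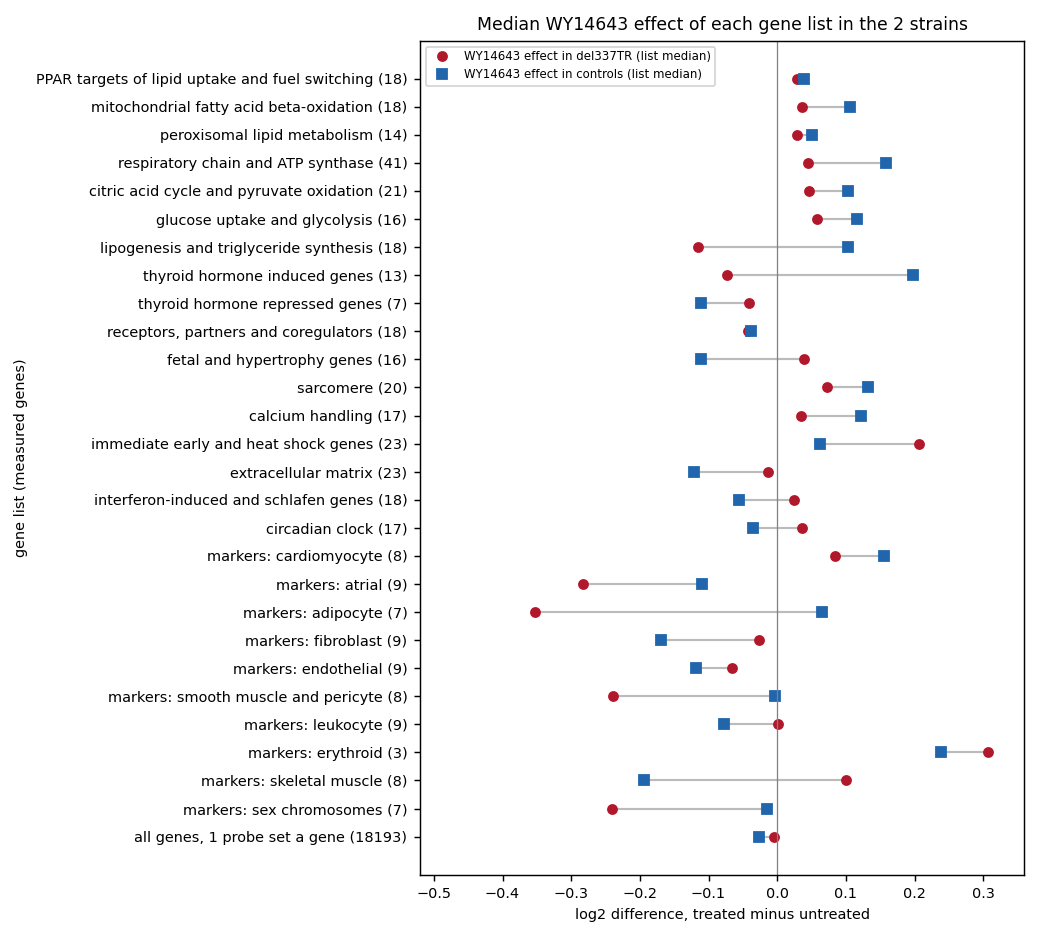
Median WY14643 effect (log2, treated minus untreated) of each gene list in del337TR (red circles) and in controls (blue squares), with the number of measured genes in parentheses and all 18193 genes at the bottom. The respiratory chain stands at 0.05 in del337TR and 0.16 in controls, and lipogenesis at -0.12 in del337TR and 0.10 in controls.

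Among markers of other cells, those of smooth muscle and pericytes had 2 of 8 above 0 and a median of -0.21, with Tagln, the actin-binding protein transgelin, at -0.90 ± 0.45. That median was -0.02 with the adipocyte score as a covariate and -0.35 with sex as a covariate. Fibroblast markers had 5 of 9 above 0 and a median of 0.00, endothelial markers 5 of 9 and 0.02, leukocyte markers 7 of 9 and 0.12, and erythroid markers 2 of 3 and 0.15. Skeletal muscle markers had 5 of 8 above 0 and a median of 0.24, and cardiomyocyte markers 1 of 8 and -0.06. None of the genes on these 7 lists was at an unadjusted p under 0.05. Of the 7 sex chromosome genes 1 (14.3%) was, beside 4.64% of all genes, namely Uty, a Y-linked gene, at 1.51 ± 0.68. Eif2s3y, also Y-linked, had 5.05 ± 2.60 and Xist, the RNA of the inactive X, had -1.13 ± 0.98, which stand beside the unequal sex makeup given above. With sex as a covariate 0 probe sets were called and the lowest adjusted limma p was 0.0968.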

How the data were processed

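RNA of 28 mouse hearts was hybridised to 1-colour Affymetrix-type arrays, 1 for each individual, per the labels' protocols. The intensity values the authors deposited were linear, with a highest value of 26183.2, a mean of 250 on each array after trimming 2% at each end, and array medians of 60 to 77.8. The submitters' processing notes name RMA, but these values do not have its log2 form and were used as scaled intensities. The precision rests on the number of arrays, and no read depth applies. The members and gene lists were chosen with earlier results of these data known.

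The 64 AFFX control probe sets were left out of 45101. The 3 values at 0 were set to 0.1, the lowest positive value, before the log2. The model of 4 group means, without covariates, was fitted by limma 3.58.1 (R 4.3.3, lmFit then eBayes on the contrast, 24 residual degrees of freedom). The interaction contrast was tested two-sided with Benjamini-Hochberg adjustment at 0.05. The method was tested on simulated data. Gene names came from the platform annotation, in which 34945 probe sets had 1 symbol, 932 several and 9160 none. No 2 of the 378 pairs of arrays were identical.

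Named genes were those called, the 12 of lowest p in each direction above the 40th percentile of signal, up to 3 of lowest p on each of 27 lists, and every probe set of Thra, Thrb, Ppara and Slfn3. A list gene was read by its brightest probe set. Of 399 list genes 366 were matched, and the others, such as Cfd and Plin1, are not analysed here. The adipocyte score, planned with Cfd as well, used Adipoq and Retn only, although 7 adipocyte markers were measured. Alternatives were 16 or 64 added to signals, a signal filter, other variance models, array weights, quantile normalization, median centring, covariates (sex, atrial score, adipocyte score, the first residual component), a replicate block, leaving out each array, leaving out the 4 arrays numbered 7, and male arrays only. Promoter sequences are RefSeq's, in GRCm38.p6.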

Additional observations from a re-analysis of the deposited data

Results flagged for a closer look

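In 360 groups of 7 arrays searched, over the named probe sets and array measures, 36 (10%) held an array far from the other 6. Its gap to the nearest of them exceeded 0.568 of the group's range, which chance gives in about 1 group in 20. That gap was taken on the log2 scale for probe sets and for the actin 3' to 5' ratio.

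Replicate 7 of the untreated controls was far off for several genes. It had a signal of 3102.7 for Myh7 against 14554 or more, 20.5 for Lhx4, 32.3 for Retn, 289.1 for Gpd2, 1383.6 for Thrsp and 1621.4 for Lpin1, and an actin 3' to 5' signal ratio of 1.52. Other untreated controls far off were replicate 3 for Ppara (400.2 and 694 on 2 probe sets), replicate 6 for St7l (208.3) and replicate 2 for Sync (120.7). Replicate 7 of the treated controls had 407.8 for Gpd2, 140.9 for Lhx4, 100 for Sync, 10004 for Acadvl, 49.1 for Kyat1 and 114.9 for Thra. The other treated controls were replicate 1 for Ppard (381.9), replicate 3 for Lipe (363.1) and Cntn2 (19), replicate 4 for Irf7 (184.9) and replicate 6 for Cidec (3.3). The highest actin 3' to 5' signal ratio of all 28 arrays was 1.82, in replicate 7 of the treated controls, although it fell short of the rule. That ratio had an interaction of -0.20 ± 0.10, and its part in the other values was not tested.

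Among treated del337TR hearts, replicate 4 was the female array, with 15 for Eif2s3y, 60 for Uty and 907.6 for Xist, and it had 8535 for Idh3a. Replicate 1 had 96.3 for Mybl2, and replicate 7 had 127.8 for Slfn1 and an array median of 77.8. Among untreated del337TR hearts, replicate 3 had 120.6 for Sync and replicate 7 had 71.9 for Map3k7. Replicate 5 had 173.6 for Rrm2 and 275.9 for Gskip, and replicate 6 had 3022.3 for Klf9, 18.3 for Ciart and 2383.7 for Dusp1. Without the 4 arrays numbered 7 no probe set was called on the log2 scale, and Slfn3 was called with 16 added.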

How the results depend on the processing

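The count of 0 called probe sets on the log2 scale was the same in every other setting run without an offset. With 16 added to signals 1 probe set (Slfn3) was called. With 16 added there was also 1 call after quantile normalization, with the replicate block, with the atrial score and without the 4 arrays numbered 7, and 2 with sex as a covariate (Slfn3 and an unnamed probe set). With 64 added there was 1. The settings with 16 added together with another change, with 64 added, or with male arrays only were chosen after seeing the data. With 16 added, leaving out each array in turn gave between 1 and 2 calls, the second being St8sia2 without del337TR replicate 3, treated control replicate 5 or treated del337TR replicate 6. The cause of these differences was not tested. Beside the 2207 probe sets at an unadjusted p under 0.05, the signal filter gave 1443, which follows from fewer probe sets tested, and leaving out each array gave between 2011 and 2608.

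The replicate numbers were not taken as pairs, because the labels state no pairing and 5 of 42 correlations between same-numbered arrays, not every one, were over 0.1 (range -0.12 to 0.19). Of 28 arrays, 10 correlated best with their own number, and the count that unrelated numbers would give was not worked out. In all 4 groups the array numbered 7 had the lowest correlation with the rest of its group, at 0.960, 0.960, 0.950 and 0.958 in treated and untreated del337TR and treated and untreated controls, and the lowest array weight. Whether a number marks a shared factor was not tested. With the replicate block 0 probe sets were called and 2391 were at an unadjusted p under 0.05.

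Of 88 named probe sets 13 changed sign under some setting, for causes that were not tested, and the others kept their direction under all settings run for them. With sex as a covariate Angptl4 had -0.16, Xist 0.41 and a Thra probe set 0.020. In male arrays only Eif2s3y had -0.22, Sln 2.62, Myl4 1.63, Myl7 0.87, Xist 0.77, Thra 0.057 and 0.077, and Ppara 0.086. With the atrial score Sln had 0.52, Myl4 0.37 and Thra 0.090. With the adipocyte score Sln had 0.73, Myl4 0.46, Adipoq 0.069, Fasn 0.064, Acta1 -0.027, Xist 0.59 and Thra 0.13. Pdk4 had 0.057 after quantile normalization and 0.014 without the arrays numbered 7. Leaving out each array gave -0.13 to 0.48 for Angptl4, -0.083 to 0.023 for Pdk4, -0.14 to 0.10 and -0.11 to 0.023 for 2 probe sets of Thra, and -0.22 to 0.0021 for a probe set of Ppara.

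Dim genes limit the result: below a mean signal of 40.2 the median 95% interval reached 1.47 to either side on the log2 scale, against 0.48 above it. Sex makeup differed between groups, and scaling moved the share of probe sets above 0.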
